A study of Homo sapiens with 6 samples.

Results

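The genes described here are 51 genes of DNA replication and S phase, the cell cycle phase in which the genome is copied, out of 60483 genes listed in the count table. They were chosen by name, as subunits of the machinery that marks, licenses, fires and elongates replication origins and as regulators of entry into S phase, and each symbol was matched to 1 Ensembl gene. RNA-seq had been performed on A2780, an established human ovarian carcinoma cell line, in 2 groups of 3 libraries. The WT group was the parental line, with CDK12 unedited. The CDK12 KO group was a clone edited with CRISPR/Cas9 in exon 1 of CDK12, a kinase that acts with cyclin K on RNA polymerase II. Neither group had a treatment in its labels, and all KO libraries came from 1 homozygous clone, so the loss of CDK12 and other differences between this clone and the parental line cannot be told apart. The paper reports doubled DNA content in this clone, with a distribution over the cell cycle phases similar to that of the parental line. Nothing in the sources used here states that the libraries of a group came from separate cultures, and the p-values below measure only the spread between these libraries, which may be technical.

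Replication begins in G1 phase, when the origin recognition complex binds origins and, with CDC6 and CDT1, loads the MCM2 to MCM7 helicase as an inactive ring. At the start of S phase the DBF4-dependent kinase CDC7 and the cyclin-dependent kinases turn the ring into an active helicase by adding CDC45 and the GINS complex, and the DNA polymerases alpha, delta and epsilon then copy both strands. Many of these genes are transcribed at the boundary of G1 and S by E2F factors, which bind sites with a run of T followed by G and C near the start of transcription.

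The letters of such sites were therefore looked up in the promoters of these genes. Windows from 250 bases before to 50 bases after each RefSeq start were searched on both strands for 5 words of 8 bases, TTTCGCGC, TTTGGCGC, TTTCCCGC, TTTGGCGG and TTTGCGCG, which may overlap each other. A window was at hand for 43 of the 51 genes, and 27 of them (62.8%) held at least 1 word in at least 1 window. Counted by window, 27 of their 54 windows held a word, against 1321 of all 35116 windows (3.76%). The share was 7.56% among the 11165 genes that were both tested for expression and had a window. Stretches of 50 bases are shown for 3 genes that were lower in KO cells (POLE2, CDC6, E2F1) and 2 that were higher (CDT1, DTL). These examples were picked by direction, so their mix does not reflect the share of genes that moved either way. Each runs 5′ to 3′ along the gene, from 45 bases before the RefSeq start to the first 5 bases from it, and capitals mark the matched words. POLE2 lies at chr14:49688210-49688259 on the minus strand of GRCh38.p14, CDC6 at chr17:40287834-40287883 (plus), E2F1 at chr20:33686381-33686430 (minus), CDT1 at chr16:88803744-88803793 (plus) and DTL at chr1:212035703-212035752 (plus).
POLE2: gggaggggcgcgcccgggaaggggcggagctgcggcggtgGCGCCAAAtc
CDC6: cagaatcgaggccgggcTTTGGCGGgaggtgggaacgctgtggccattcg
E2F1: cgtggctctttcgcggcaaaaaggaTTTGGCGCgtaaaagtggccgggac
CDT1: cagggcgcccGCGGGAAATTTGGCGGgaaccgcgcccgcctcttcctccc
DTL: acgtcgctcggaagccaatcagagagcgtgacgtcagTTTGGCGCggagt
In POLE2 the word TTTGGCGC was read on the opposite strand and spans the start itself. CDT1 held 2 words side by side in opposite orientation. A match is a run of letters and not a measured binding site.

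Total counts ranged from 11098400 to 30899045 per library, so that 3 counts, taken as the limit of detection, stood for 0.0971 to 0.270 CPM, a gene's count relative to all counts of its library. Such values are relative, so less RNA per cell and fewer cells in S phase cannot be told apart in these values. Reads carried no molecular identifiers, and such limits cover counting error only. CDK12, the targeted gene, had 103, 125 and 117 CPM in the 3 WT libraries and 99.0, 93.0 and 102 CPM in the KO libraries. Its log2 fold change was -0.23 (SE 0.058, adjusted p = 8.2e-04). All adjusted p-values here are from edgeR's quasi-likelihood test, adjusted by the Benjamini-Hochberg method over all genes tested. Reads outside the edited exon do not check the edit. The paper reports both edited alleles by sequencing and no CDK12 protein in this clone by western blot. Of 8 epithelial and ovarian carcinoma markers, KRT18, KRT8 and EPCAM passed the filter on low counts, with means of 59.9, 7.34 and 3.19 CPM in WT cells and 103, 10.96 and 2.17 CPM in KO cells. PAX8, WT1, KRT19, CDH1 and MUC16 had at most 11 counts in each library. The summed counts of 4 leukocyte markers were 7 to 15 in WT and 12 to 27 in KO libraries, and those of 2 endothelial markers 2 to 8 and 11 to 22. The fibroblast markers DCN and LUM together had 15 to 40 counts in WT and 0 in KO libraries, and the erythroid marker HBB had at most 1. The 7 markers that passed the filter differed between the genotypes, and their part in the results below was not tested.

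All 51 replication genes passed the filter on low counts, with a median depth of 78.5 CPM in WT cells, against 20.4 CPM over the 16198 genes tested. In CDK12 KO cells 36 of the 51 (70.6%) were lower at an adjusted p under 0.05 by edgeR's quasi-likelihood test, 6 (11.8%) were higher and 9 did not pass. Over all genes tested, 32.0% were lower and 31.9% were higher. Among the 9849 genes with a mean of at least 10 CPM, which included 50 of the replication genes, 37.8% were lower. The KO and WT libraries did not overlap for 42 of the 51 genes (82.4%), 36 lower and 6 higher, against 66.4% of all genes tested in either direction.

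The changes were small. The median log2 fold change was -0.21, beside 0.0004 over all genes tested and -0.03 over genes with a mean of at least 10 CPM. It was 0.5 or less in absolute value for 44 of the 51 genes, between 0.5 and 1 for 4 and above 1 for 3. The corresponding shares of all genes tested were 66.2%, 17.7% and 16.0%, and the median absolute log2 fold change was 0.23 for the replication genes and 0.32 for all genes. All genes had a lower median level, and the sizes of change were not compared with those of genes of similar level. With both an adjusted p under 0.05 and a fold change beyond 2 in linear terms (1 on the log2 scale), POLE2, E2F8 and CCNE2 were down-regulated, against 7.73% of all genes tested. No replication gene had a log2 fold change above 1 in edgeR, voom/limma or DESeq2, with or without a test, against 8.30% of all genes tested that were up-regulated by both thresholds.

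Added up, the 51 genes reached 6146, 6457 and 6206 CPM in the WT libraries and 5667, 5720 and 5618 CPM in the KO libraries. The KO libraries were all below the WT libraries, and the mean of 5668 ± 50.9 CPM (SD, n = 3) in KO cells was 90.4% of the 6270 ± 165 CPM in WT cells. This sum is weighted towards genes with high levels, such as RRM2, with means of 614 CPM in WT and 467 CPM in KO cells. The plot of every gene by role shows that the lower genes were spread over the 11 roles and that the 6 higher genes stood in 5 of them.

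**Figure D1:**
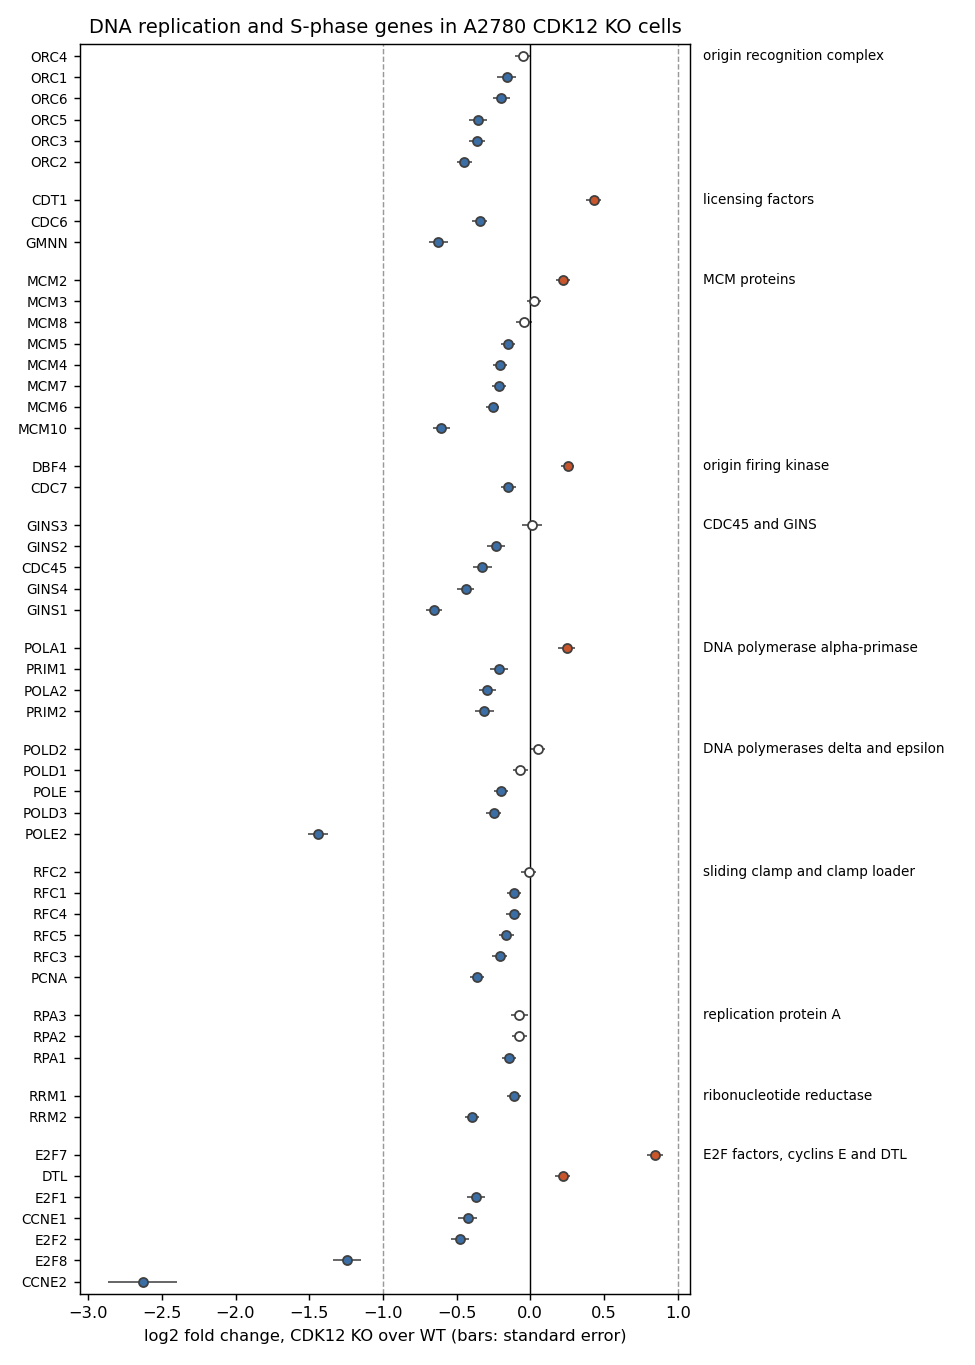
The log2 fold change of CDK12 KO over WT (x axis) for each of the 51 genes, grouped by role. Points give the estimate and bars its standard error, derived from the test statistic. Blue points were lower and orange points higher at an adjusted p under 0.05, white points did not pass, and dashed lines mark log2 fold changes of -1 and 1. Of the 51 points, 36 are blue and lie left of 0, with CCNE2 (-2.63), POLE2 (-1.44) and E2F8 (-1.24) beyond the left dashed line, and 6 are orange.

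The origin recognition complex, the 6-subunit ATPase that marks origins, was lower in 5 of its 6 subunits. ORC2 had the largest fall, from 92.1, 96.6 and 95.6 CPM in WT to 67.4, 70.0 and 70.9 CPM in KO libraries. No KO library reached the lowest WT library, and the log2 fold change was -0.45 (SE 0.051, adjusted p = 3.16e-09). ORC3 (-0.36), ORC5 (-0.36) and ORC6 (-0.20) were lower without overlap of the groups, and ORC6 lost its call without KO replicate 3. ORC1, the subunit whose level is known to follow the cell cycle, passed the test at -0.16 (adjusted p = 0.0272). However, its groups overlapped, with a highest KO library of 62.8 CPM and a lowest WT library of 62.2 CPM. The call was lost without WT replicate 2 or without KO replicate 1. It was also lost in DESeq2, with upper-quartile scaling and with a filter of 10 counts in every library. The log2 fold change of ORC4 was -0.05 (adjusted p = 0.398).

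The licensing factors went in different directions. CDT1, which brings the MCM ring to origins, had 95.7, 87.5 and 88.2 CPM in WT and 119, 122 and 126 CPM in KO libraries. All KO libraries were above all WT libraries, by 1.35-fold (log2 fold change 0.43, SE 0.051, adjusted p = 7.71e-09). GMNN encodes geminin, the inhibitor that binds CDT1 after origins have fired and so prevents a further round of licensing. It had 67.6, 68.8 and 70.5 CPM in WT and 40.5, 51.2 and 41.8 CPM in KO libraries. The groups did not overlap and the fall was 35.1% (log2 fold change -0.62, SE 0.066, adjusted p = 6.69e-10). The spread within the KO group came mostly from KO replicate 2. Levels per kilobase used all annotated exons of a gene and not the length of its main transcript, so ranks between genes depend on the annotation. Set per kilobase of exon, CDT1 was at 32.8 ± 1.63 and GMNN at 27.8 ± 0.5997 CPM per kb in WT cells (SD, n = 3), and at 44.3 ± 1.35 and 18.0 ± 2.36 CPM per kb in KO cells. CDC6, the ATPase that loads the ring with CDT1, was lower (-0.34, adjusted p = 7.17e-07).

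Of the 8 MCM genes, 5 were lower, MCM2 was higher, and MCM3 and MCM8 did not pass. MCM2, a subunit of the helicase ring that also binds histones, had 239, 259 and 233 CPM in WT and 281, 284 and 288 CPM in KO libraries. Its lowest KO library was above its highest WT library (log2 fold change 0.22, SE 0.048, adjusted p = 1.84e-04). The other ring subunits gave -0.21 for MCM4, -0.15 for MCM5, -0.25 for MCM6, -0.21 for MCM7 and 0.02 for MCM3 (adjusted p = 0.672). MCM5 did not pass when the libraries were thinned to equal depth (-0.12). MCM10, which is not part of the ring and helps to activate it, fell most, from 49.9, 53.3 and 52.0 CPM to 33.98, 35.8 and 32.1 CPM. No libraries of the groups overlapped (log2 fold change -0.60, SE 0.060, adjusted p = 1.70e-10). MCM8, a helicase of recombination and repair, was at -0.04 (adjusted p = 0.507). Per kilobase of exon, a measure that depends on the annotated exons, MCM6 had the highest level of the 6 ring subunits in both groups. It was at 95.1 ± 2.29 CPM per kb in WT and 79.8 ± 1.13 in KO cells. MCM5 had the lowest, 26.9 ± 0.309 and 24.2 ± 0.503. MCM2 stood below MCM7 in WT cells, at 51.7 ± 2.90 against 67.4 ± 3.91 CPM per kb, while in KO cells MCM2 was at 60.3 ± 0.736 and MCM7 at 58.3 ± 1.54, and their difference was close to their spread.

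The kinase that fires origins also split. DBF4, a regulatory subunit that activates CDC7, had 201, 206 and 207 CPM in WT and 248, 241 and 243 CPM in KO libraries. The groups did not overlap (log2 fold change 0.25, SE 0.046, adjusted p = 1.40e-05). The catalytic subunit CDC7 had 79.1, 78.2 and 80.3 CPM in WT and 73.9, 69.7 and 70.3 CPM in KO libraries, a fall of 9.81% without overlap (log2 fold change -0.15, SE 0.051, adjusted p = 0.0117). When every library was thinned to the depth of the smallest, the fall of CDC7 no longer passed (log2 fold change -0.10, adjusted p = 0.205).

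CDC45 and the 4 GINS subunits, which join the MCM ring to form the active helicase, were lower in 4 of 5 cases. GINS1 had 73.4, 72.8 and 75.7 CPM in WT and 46.8, 47.0 and 47.0 CPM in KO libraries. The KO libraries, with 1151, 1265 and 836 counts, had an SD of 0.082 CPM. This lies below the error of counting and is no measure of precision. The groups were far apart (log2 fold change -0.65, SE 0.053, adjusted p = 1.46e-12). GINS4 (-0.44), CDC45 (-0.32) and GINS2 (-0.23) were lower too. GINS3, a subunit of the same 4-part complex, was at 24.0 ± 0.935 CPM in WT and 24.1 ± 1.04 CPM in KO cells (log2 fold change 0.01, adjusted p = 0.870). Per kilobase of exon GINS3 was the lowest of the GINS subunits in both groups, with 4.69 ± 0.183 and 4.72 ± 0.203 CPM per kb, and GINS1 came closer to it, from 9.23 ± 0.194 to 5.85 ± 0.0102.

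DNA polymerase alpha with primase, which lays down the RNA-DNA primers, had 1 higher and 3 lower subunits. POLA1, the catalytic subunit, had 50.6, 58.2 and 51.4 CPM in WT and 66.9, 62.6 and 61.2 CPM in KO libraries. The KO libraries were all above the WT libraries (log2 fold change 0.25, SE 0.059, adjusted p = 5.12e-04). PRIM2, the large primase subunit, had 43.5, 42.3 and 35.8 CPM in WT and 33.2, 32.1 and 34.1 CPM in KO libraries. WT replicate 3 was the closest to the KO libraries, and the groups did not overlap (log2 fold change -0.31, SE 0.065, adjusted p = 1.08e-04). POLA2 (-0.29) and PRIM1 (-0.21) were lower. Per kilobase of exon, POLA1 and POLA2 were at 3.43 ± 0.268 and 4.99 ± 0.190 CPM per kb in WT cells, and at 4.09 ± 0.189 and 4.07 ± 0.256 in KO cells.

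Among the subunits of DNA polymerases delta and epsilon, POLE2 had the largest change of all the genes of the replication machinery proper. POLE2 is the second subunit of polymerase epsilon, the leading strand polymerase, and helps to assemble the active helicase. It had 37.2, 38.6 and 35.7 CPM in WT and 14.3, 13.8 and 13.04 CPM in KO libraries. The lowest WT library was above the highest KO library by more than the spread within either group, and the level was 2.71-fold lower in KO cells (log2 fold change -1.44, SE 0.070, adjusted p = 2.44e-18). The catalytic subunit POLE fell by 0.20 on the log2 scale (adjusted p = 6.68e-04). Of the small histone-fold subunits, which belong to the wider list of replication genes described further on, POLE3 was higher (0.19) and POLE4 lower (-0.62). Per kilobase of exon, POLE2 and POLE were close in WT cells, with 12.6 ± 0.503 and 15.1 ± 0.777 CPM per kb. In KO cells they were at 4.66 ± 0.214 and 13.1 ± 0.229 CPM per kb. For polymerase delta, the lagging strand polymerase, POLD3 was lower (-0.25), while POLD1 (-0.07, adjusted p = 0.236) and POLD2 (0.05, adjusted p = 0.359) did not pass.

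**Figure D2:**
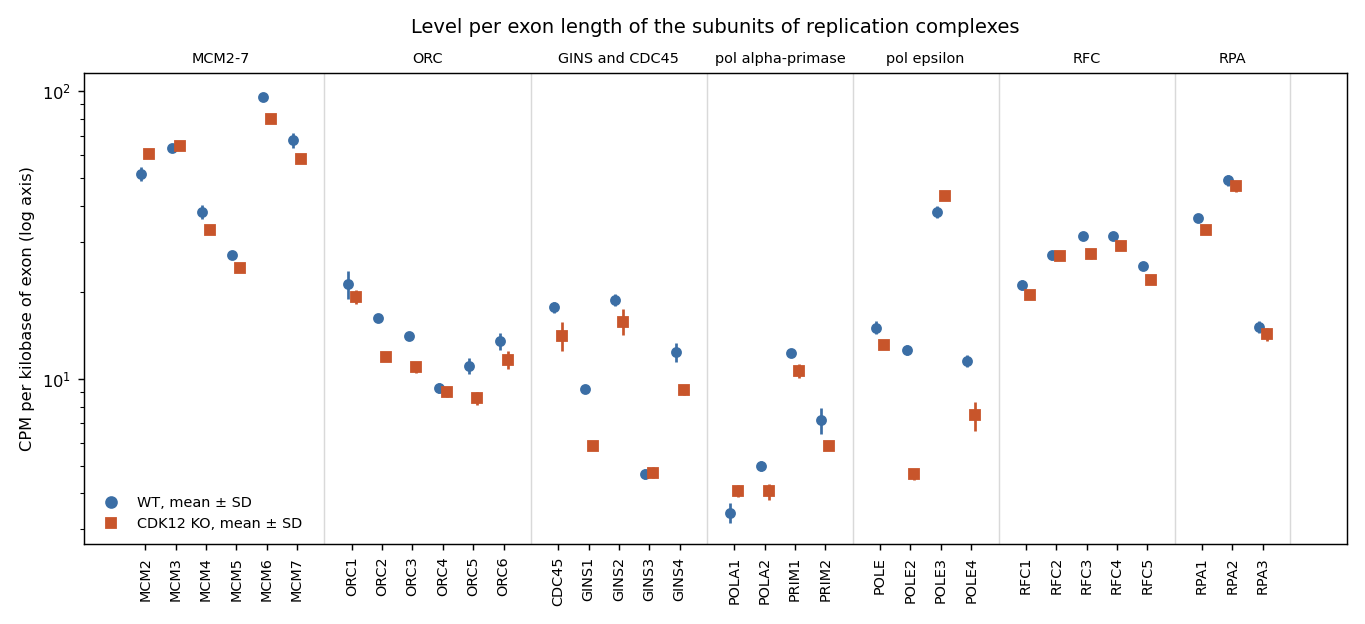
Level of each subunit of 7 replication complexes in CPM per kilobase of exon (y axis, log scale), as mean and SD of the 3 WT (blue circles) and 3 CDK12 KO libraries (orange squares). POLE2 falls from 12.6 to 4.66 CPM per kb while POLE, POLE3, the RFC and the RPA subunits differ far less, and MCM2 and POLA1 rise while most of their partners fall.

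The 3 genes past both thresholds were set beside their surroundings. POLE2 lies at chr14:49643555-49688422 on the minus strand of GRCh38, and the 3 tested genes on each side of it had log2 fold changes between -0.29 and 0.06. Genes that overlap POLE2 on the other strand had at most 2 counts in all libraries. E2F8 lies at chr11:19224063-19241620 on the minus strand and had neighbours between -0.36 and 1.23, with a median of -0.13. CCNE2, on chromosome 8, had neighbours between -1.05 and 1.40, with a median of 0.03. CCNE2 shares 1977 bases with INTS8, an Integrator subunit gene on the other strand that was itself lower (-0.68, adjusted p = 1.07e-11), and 1146 bases with NDUFAF6 (0.18, adjusted p = 0.0523). The library kit kept the strand, but whether the counting used it is not given in the sources used here, so reads of CCNE2 and of these genes may not be fully separated.

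Sliding clamp and clamp loader genes were lower in 5 of 6 cases, by small amounts. PCNA, the ring that holds the polymerases on DNA, had 289, 288 and 294 CPM in WT and 224, 237 and 217 CPM in KO libraries. The groups were clearly apart (log2 fold change -0.36, SE 0.047, adjusted p = 5.82e-08). The RFC genes encode the loader that opens this ring. Of these, RFC3 (-0.21) and RFC5 (-0.16) were lower, but neither passed when the libraries were thinned to equal depth (-0.09 and -0.11). RFC1 and RFC4 were lower at -0.11 each with adjusted p of 0.0479 and 0.0496. Both calls were lost in DESeq2, with upper-quartile scaling, with thinned libraries and with other filters. They were also lost when some single libraries were left out. RFC2 was at -0.01 (adjusted p = 0.860). Of the 3 subunits of replication protein A, which coats single-stranded DNA, RPA1 had 196, 206 and 194 CPM in WT and 176, 184 and 180 CPM in KO libraries. Its groups did not overlap (log2 fold change -0.14, SE 0.047, adjusted p = 0.0089), but without KO replicate 1 the adjusted p was 0.0541. RPA2 and RPA3 were both at -0.08 (adjusted p = 0.200 and 0.265).

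Ribonucleotide reductase, which makes the deoxynucleotides for replication, was lower in both subunits. RRM2, the small subunit whose level is known to peak in S phase, had 589, 646 and 608 CPM in WT and 470, 467 and 462 CPM in KO libraries. The groups did not overlap, and the fall was 24.1% (log2 fold change -0.40, SE 0.047, adjusted p = 8.72e-09). The large subunit RRM1 gave -0.11 (adjusted p = 0.0349), a call that was lost without any of 5 libraries in turn. The RRM1 call was also lost with thinned libraries, with upper-quartile scaling and with other filters.

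The largest changes in either direction were found among the S-phase regulators, of which 5 were lower and 2 higher. CCNE2, 1 of the 2 cyclins E that activate CDK2 at S-phase entry, had the lowest level per kilobase of exon among the 51 genes. It had 77, 113 and 43 counts in WT and 16, 16 and 6 counts in KO libraries. These are 2.81, 3.77 and 3.87 CPM against 0.651, 0.594 and 0.337 CPM. Every KO library was above the limit of 3 counts and far below every WT library, and the level was 6.19-fold lower (log2 fold change -2.63, SE 0.235, adjusted p = 1.69e-11). Its partner gene CCNE1 was lower by 25.6% (log2 fold change -0.43, adjusted p = 1.16e-06). Per kilobase of exon CCNE1 was at 15.3 ± 1.10 and CCNE2 at 0.792 ± 0.133 CPM per kb in WT cells.

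The E2F repressors E2F7 and E2F8, which act at the same sites and often as partners, went apart. E2F8 had 17.2, 21.7 and 19.3 CPM in WT and 8.46, 7.73 and 8.60 CPM in KO libraries. No KO library exceeded 8.60 CPM, and the level was 2.36-fold lower (log2 fold change -1.24, SE 0.094, adjusted p = 3.33e-13). E2F7 had 71.7, 80.3 and 77.2 CPM in WT and 142, 129 and 141 CPM in KO libraries. All KO libraries were above all WT libraries, by 1.80-fold (log2 fold change 0.84, SE 0.054, adjusted p = 4.15e-15). The activators E2F1 (-0.37) and E2F2 (-0.47) were lower, with 58.5 ± 0.798 and 55.0 ± 2.33 CPM in WT and 45.1 ± 4.58 and 39.4 ± 3.02 CPM in KO cells. DTL, the substrate receptor of the ubiquitin ligase that removes CDT1 during S phase, was higher, with 164, 183 and 165 CPM in WT and 201, 196 and 199 CPM in KO libraries. The groups of DTL did not overlap (log2 fold change 0.22, SE 0.050, adjusted p = 2.80e-04).

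**Figure D3:**
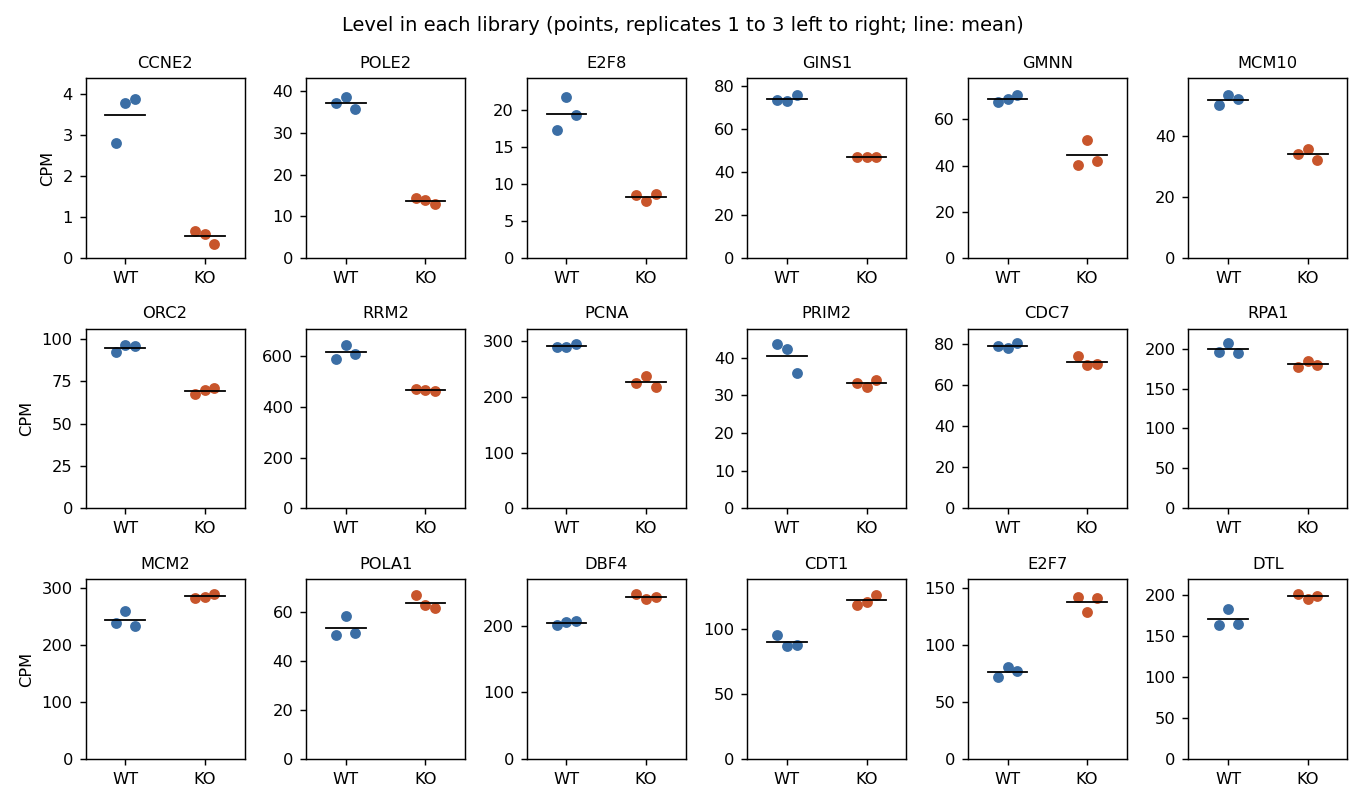
CPM (y axis, from 0) of 18 of the genes in each of the 3 WT (blue) and 3 CDK12 KO libraries (orange), with a line at the group mean. The genes shown were picked for changes that passed at an adjusted p under 0.05, DTL after its values were seen. Their groups do not overlap in any of the 18 panels. The same held for 42 of all 51 genes and for 66.4% of all genes tested. GMNN runs from 40.5 to 51.2 CPM within the KO group, and the top 2 rows hold genes that were lower and the bottom row genes that were higher.

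Genes with and without an E2F word in the promoter were found in both directions. Of the 27 genes with a word, 20 were lower, 4 were higher (CDT1, MCM2, POLA1 and DTL) and 3 did not pass, with a median log2 fold change of -0.21. Of the 16 genes with a window and no match, 10 were lower, 2 were higher (DBF4 and E2F7) and 4 did not pass, with a median of -0.13. This difference between the medians was not tested. The genes were also ordered by length. The median log2 fold change was -0.23 for the 17 shortest genes (5.47 to 20.9 kb), -0.15 for the middle 17 and -0.21 for the 17 longest (49.6 to 332 kb). Across the 51 genes, which share the same libraries, Pearson's r between log span and log2 fold change was 0.11 and Spearman's rho 0.12, beside -0.05 and -0.06 over 15989 tested genes.

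Genes with related roles gave a wider view. Of 65 other genes of replication, nucleotide supply and chromatin assembly, 36 were lower, 12 were higher and 17 did not pass, with a median log2 fold change of -0.15 and a range from -0.73 to 0.76. Among fork factors TIPIN, a partner of TIMELESS that protects stalled forks, had the largest fall (37.2 ± 2.08 to 22.2 ± 1.23 CPM, log2 fold change -0.73), and RNASEH2C, a subunit of RNase H2, the largest rise (27.2 ± 1.18 to 41.3 ± 4.46 CPM, 0.61). Among the factors of S-phase entry, CDK2, the kinase that the cyclins E activate, fell from 112 ± 4.14 to 70.0 ± 1.82 CPM (-0.68). CUL4B, a scaffold of the ligase that uses DTL, rose from 85.5 ± 2.86 to 117 ± 6.72 CPM (0.46). CUL4A, the other CUL4 scaffold in the list, fell from 114 ± 3.00 to 79.1 ± 1.34 CPM (-0.52). In the wider E2F and RB family E2F4 was lower (-0.50). The dimerisation partner TFDP2 was higher (0.40), while TFDP1 was lower (-0.38).

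Nucleotide supply held changes in both directions, with 5 genes lower and 4 higher of 10. Over all genes tested, 32.0% were lower and 31.9% higher, so changes both ways are not particular to this role. TYMS, which makes thymidylate, fell from 357 ± 4.28 to 250 ± 1.74 CPM (log2 fold change -0.51). RRM2B, the p53-inducible small subunit of ribonucleotide reductase, rose from 57.6 ± 0.721 to 97.7 ± 5.90 CPM (0.76), while RRM2, the subunit used in S phase, was lower. CHAF1B, a subunit of the chromatin assembly factor that works at forks, had the largest fall in histone supply (-0.57). TIPIN, RNASEH2C, CDK2, CUL4B, E2F4, TFDP2, TYMS, RRM2B and CHAF1B were chosen as the largest passing changes in their roles, at an adjusted p under 0.05. Their passing is therefore no separate result. Their 3 KO and 3 WT libraries did not overlap, a state shared by 66.4% of all genes tested.

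For comparison with another cell cycle phase, 12 of 19 mitosis genes (63.2%) were lower, 3 (15.8%) were higher and 4 did not pass. All genes tested had 32.0% lower and 31.9% higher. The median log2 fold change of the mitosis genes was -0.36. PTTG1, the securin that inhibits separase, the protease that cleaves cohesin, had the largest fall, from 63.0 ± 1.21 to 19.7 ± 0.602 CPM (-1.67), and KIF20A, a kinesin of cytokinesis, the largest rise (0.34). No test between the lists was made. E2F words were found in 18 of 55 other replication genes (32.7%) and in 3 of 15 mitosis genes (20.0%) with a window.

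**Figure D4:**
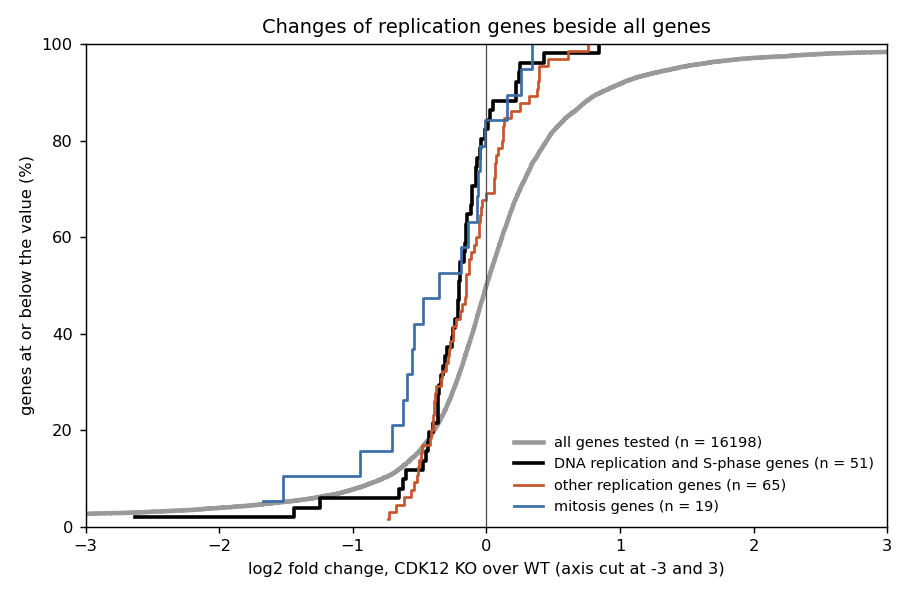
Cumulative share of genes (y axis, percent) at or below each log2 fold change of CDK12 KO over WT (x axis, cut at -3 and 3) for the 51 replication genes (black), 65 other replication genes (orange), 19 mitosis genes (blue) and all 16198 genes tested (grey). The 3 lists lie left of the grey curve through most of its middle, with medians of -0.21, -0.15 and -0.36 against 0.0004, and the black curve is steeper than the grey one, with 44 of its 51 genes within 0.5 of 0.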

How the data were processed

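Total RNA of 3 A2780 WT and 3 A2780 CDK12 KO libraries was prepared with a stranded kit and sequenced as single reads of 75 bases. The authors deposited raw counts per gene. Per the paper's methods and the submitters' processing notes, reads were checked with FastQC, aligned with STAR to GRCh38 and counted with HTSeq-Count. Tool versions, annotation release, and the handling of strand and of reads with several matches are not given in the sources used here.

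Groups came from the genotype labels. The KO-against-WT comparison was made with edgeR 4.0.16 in R 4.3.3 (filterByExpr, minimum count 10 and total 15, TMM scaling, quasi-likelihood test, two-sided), with Benjamini-Hochberg adjustment over 16198 genes of 60483. CPM used the TMM-scaled totals. The standard errors (SE) were derived from this test, as the absolute log2 fold change divided by the square root of its F statistic. Total counts ranged from 11098400 to 30899045, and the biological coefficient of variation was 4.35%. An exact permutation test of 3 against 3 libraries cannot go below p = 0.1 and was not used for calls. The alternatives were voom/limma (limma 3.58.1), DESeq2 1.42.0, median-of-ratios and upper-quartile scaling, other filters, thinning of all libraries, stricter thresholds and fits without each of the libraries. The fits were tested on simulated data.

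Identifiers were matched to GENCODE release 44 (56321 genes), and levels per kilobase used the union of exons. Promoter windows came from RefSeq (GRCh38.p14). The genes and lists were chosen with earlier results of these data known, and the comparison with genes of at least 10 CPM was added after the data were seen. Genes given in full are those past both thresholds (adjusted p under 0.05, absolute log2 fold change above 1), and the largest rise and fall that passed in each role. DTL was given in full, and POLE3, POLE4, CUL4A and TFDP1 were named, after their values were seen.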

Additional observations from a re-analysis of the deposited data

How the results depend on the processing

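No paired analysis was possible because the labels number the libraries from 1 to 6 and the groups share no replicate number. The replicate numbers used here only follow that order within each group and mark no pairs. Over 13 alternative settings that keep the threshold of 0.05, 32 of the 51 genes passed with an unchanged direction in every setting that tested them, 10 (ORC1, ORC6, MCM5, CDC7, RFC1, RFC3, RFC4, RFC5, RPA1 and RRM1) passed in some with an unchanged direction, and the 9 that did not pass passed in none. MCM8, GINS3 and RFC2, all near 0, changed sign. With 1 library left out, RFC1 lost its call without WT replicate 2 or 3 or any KO replicate, as did RRM1. RFC4 lost it without WT replicate 1 or 3 or KO replicate 1 or 3, ORC1 without WT replicate 2 or KO replicate 1, ORC6 without KO replicate 3 and RPA1 without KO replicate 1. The adjusted p of these lost calls ranged from 0.0541 to 0.419. The number of lower genes was 29 to 36 under other tools, scalings, filters and thresholds and 31 to 35 with 1 library left out, and that of higher genes was 6 in each. With at least 10 counts in every library CCNE2 was not tested, which left 2 down-regulated genes, and otherwise 3 were. The median log2 fold change lay between -0.21 and -0.18 under other settings and between -0.23 and -0.17 with 1 library left out, with the value nearest 0 (-0.17) without WT replicate 2. The CCNE2 log2 fold change was -2.67 to -2.60 across the other tools and scalings, -2.04 with thinned libraries and -2.79 to -2.45 with 1 library left out. Thinning also ended the calls of MCM5, CDC7, RFC1, RFC3, RFC4, RFC5 and RRM1 (adjusted p from 0.0541 to 0.252). DESeq2 ended those of ORC1, RFC1 and RFC4. Upper-quartile scaling and the filter of 10 counts in every library each ended those of ORC1, RFC1, RFC4 and RRM1. With no filter, RFC1, RFC4 and RRM1 did not pass. Upper-quartile scaling moved the median of all genes by 0.03. WT replicate 3 had the smallest depth, and low genes such as CCNE2 rest on few counts there.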

Other observations

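WT replicate 2 was the highest of the WT libraries for 28 of the 51 genes (54.9%), against 35.4% of all genes tested, and WT replicate 1 the lowest for 32. In the KO group, KO replicate 2 was the highest for 25 of the 51 (49.0%), against 36.6% of all genes. The median log2 level of the 51 genes relative to the WT mean was -0.03, 0.04 and -0.002 in the WT libraries and -0.20, -0.17 and -0.22 in the KO libraries. These shifts within a group were smaller than the shift between the groups, and they were not tested.

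The annotation lists 18 pseudogenes named for the replication genes, with 375 counts in all libraries together. DBF4P1 had the most, 271 counts, or 0.878% of the counts of DBF4. An annotated gene in the count table overlapped 27 of the 51 genes.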
